A study of Homo sapiens with 6 samples.

Results

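The comparison is between 2 Ewing sarcoma cell lines, A673 and SKNMC, each exposed for 6 h to 200 nM THZ1, and asks which differences in gene expression between the lines persisted, vanished or appeared under this dose. Its genes were those with an FPKM above 1 in the DMSO library of A673 and also in that of SKNMC, which left 10215 of 27420 listed genes (37.3%) once EEF1A1 and chromosomes X and Y were left out. FPKM counts sequenced fragments relative to transcript length and to all mapped fragments of a library. The set holds 10033 genes for proteins and 182 for long intergenic noncoding RNA (lincRNA). In the study, cultures of each line received DMSO as vehicle or THZ1 at 50 nM or 200 nM for 6 h before RNA sequencing. There is 1 library for each line and dose, so no difference could be set against a replicate error, no test was made and no p-value is given. Each line stands for 1 established culture model, and a difference between them is a difference between these cultures.

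THZ1 binds covalently to CDK7, the kinase of the general transcription factor TFIIH that phosphorylates RNA polymerase II as transcription starts. When new transcription is held back, short-lived messages such as those of immediate early genes and many transcription factors are lost first, while stable messages of structural and metabolic genes stay in the cell for longer. Ewing sarcoma is driven by a fusion of EWSR1 with an ETS gene, most often FLI1, and its lines share this driver while differing in neuronal, mesenchymal and signalling genes.

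The line difference of a gene is log2((FPKM + 1) in A673 / (FPKM + 1) in SKNMC), so that a value above 0 means a higher level in A673. The added 1 shrinks the difference of genes with low FPKM. A difference of at least 2-fold with DMSO and at 200 nM in the same direction is called persisted, a difference of at least 2-fold with DMSO alone vanished, and a difference of at least 2-fold at 200 nM alone appeared. Values of a gene are given below in the order DMSO, 50 nM and 200 nM. At 200 nM, 9183 of the genes were still above 1 FPKM in both lines. In A673 800 genes, and in SKNMC 646 genes, were at or below 1 FPKM at this dose. The gene just inside the limit on the DMSO libraries was NRP2, at 1.00 FPKM in A673, and the gene just outside was BCL2L11, at 0.999 FPKM in SKNMC.

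At 200 nM the listed FPKM values summed to 461133 in A673 and 452700.0 in SKNMC. The number of reads is not known from FPKM. The most frequent ratio of low values put the depth of the A673 library at about 1.02 times that of the SKNMC library, with 4.73% of 1225 low genes at that ratio, so the estimate is rough. The share of all listed FPKM taken by cytosolic ribosomal protein genes in A673 was 13.7% with DMSO and 17.9% at 200 nM. The same share in SKNMC was 19.0% and then 29.8%. FPKM is a share of a library, so a larger share of these genes lowers the share of all others. Dividing each library by its 75th percentile shifted the median line difference at 200 nM by -0.22, and dividing by the median ribosomal protein gene shifted it by 0.54. Which scaling is closest to RNA per cell was not tested, and in these bulk samples fewer expressing cells and less RNA per cell cannot be told apart.

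The labelled cell type was checked against its markers. All 10 Ewing sarcoma markers, among them FLI1, NKX2-2, STEAP1 and LIPI, were above 1 FPKM in each of the 6 libraries. Their summed level at 200 nM was 872 FPKM in A673 and 509.5 FPKM in SKNMC, and CCND1 was the most abundant in both. Of 20 listed markers of blood, epithelial, endothelial, melanocyte, muscle and fibroblast cells, 2 were above 1 FPKM in A673 and 5 in SKNMC at each dose. Their summed level was 27.9, 26.9 and 29.8 FPKM in A673 and 124, 127 and 176 FPKM in SKNMC. DCN, a proteoglycan gene of fibroblasts and the most abundant of these markers in SKNMC, was at 0.309, 0.176 and 0.330 FPKM in A673 and 30.9, 37.1 and 54.5 FPKM in SKNMC. LUM, another such proteoglycan gene, was at 0.210, 0.0906 and 0.0294 FPKM in A673 and 23.5, 33.3 and 48.9 FPKM in SKNMC. PDGFRB, a receptor gene of the same cells, was at 17.9, 16.7 and 21.7 FPKM in A673 and 27.4, 14.2 and 15.8 FPKM in SKNMC, higher in A673 at both THZ1 doses. The leukocyte gene PTPRC was at 0.0201, 0.0291 and 0.0125 FPKM in A673 and 10.2, 7.90 and 13.1 FPKM in SKNMC. CD3E, KRT5, TYR and MYOG were listed at 0 in all 6 libraries. The part of these markers in any line difference was not tested.

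Most large differences between the lines outlasted the treatment. With DMSO, 710 (6.95%) of the 10215 genes were at least 2-fold higher in A673 and 901 (8.82%) in SKNMC. With 50 nM THZ1 these numbers were 867 (8.49%) and 922 (9.03%). At 200 nM they were 1129 (11.1%) and 824 (8.07%). Differences that persisted numbered 555 (5.43%) toward A673 and 560 (5.48%) toward SKNMC, together 69.2% of the 1611 differences seen with DMSO. Differences that vanished numbered 155 (1.52%) toward A673 and 341 (3.34%) toward SKNMC, and 152 of these 496 persisted when 0.1 was added in place of 1. Differences that appeared numbered 574 (5.62%) toward A673 and 264 (2.58%) toward SKNMC. Past 2-fold in opposite directions with DMSO and at 200 nM there were 0 genes.

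The balance between the lines depended on the scaling in each class, and at 200 nM also on the pseudocount and the filter. As deposited, 57.8% of the genes past 2-fold at 200 nM were higher in A673. This share was 34.4% after division by the 75th percentile and 91.6% after division by the ribosomal protein genes. Division by a common sum gave 55.4%. A pseudocount of 0.1 gave 52.0%, and a filter of FPKM above 1 in at least 1 DMSO library gave 49.5%. Appeared genes toward A673 and toward SKNMC numbered 309 and 646 with the 75th percentile. With the ribosomal protein genes they numbered 1639 and 56. Persisted genes toward A673 and toward SKNMC numbered 413 and 730 with the 75th percentile and 1428 and 226 with the ribosomal protein genes. Vanished genes numbered 170 and 274 with the former and 262 and 229 with the latter. The share of DMSO differences that persisted moved to 72.0% and 77.1%. Of the genes that persisted as deposited, 973 and 781 also persisted under these scalings. Of the vanished genes 308 and 124, and of the appeared genes 509 and 222, kept their class.

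**Figure D1:**
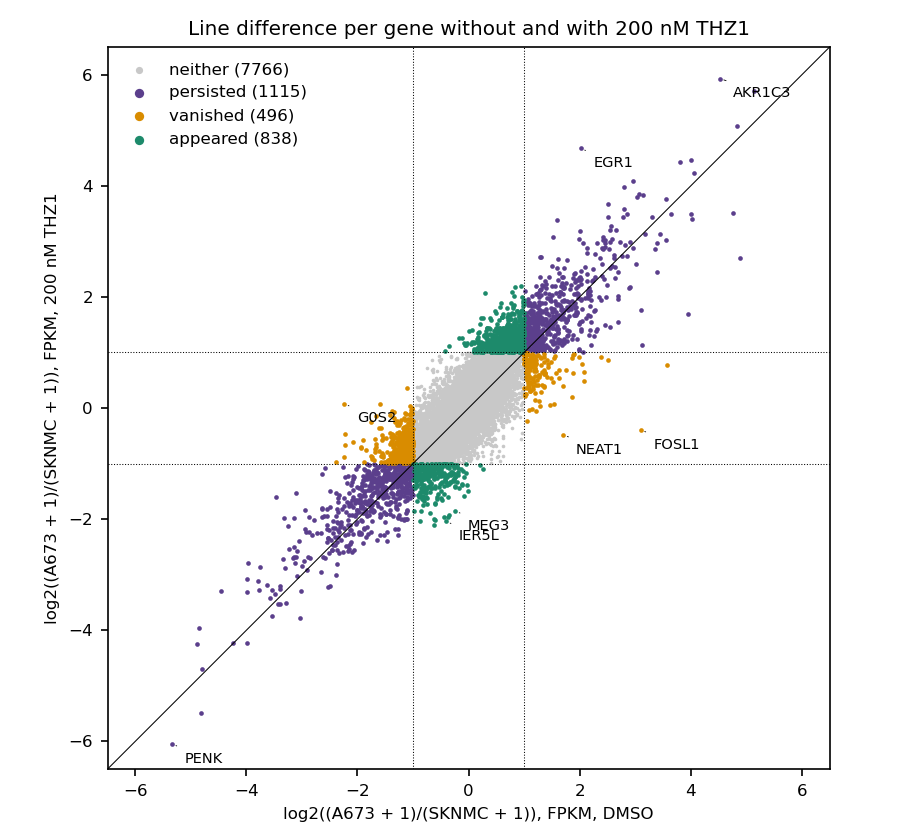
Line difference of 10215 genes with DMSO (x axis) and at 200 nM THZ1 (y axis), both as log2((FPKM + 1) in A673 / (FPKM + 1) in SKNMC), with dotted lines at 2-fold and a solid line of equality. Points are single genes from 1 library per line and dose, and most lie along the diagonal, with FOSL1 and NEAT1 far under it and EGR1 far above it.

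Across genes, the line differences with DMSO and at 200 nM correlated with a Pearson coefficient of 0.86 (Spearman 0.82, n = 10215 genes, which are not independent replicates). The coefficient between DMSO and 50 nM was 0.92. The lines moved apart slightly in spread, since the interquartile range of the difference was 0.84 with DMSO, 0.92 at 50 nM and 1.00 at 200 nM. Genes at least 4-fold apart numbered 129, 149 and 162 toward A673 and 169, 171 and 137 toward SKNMC. Among persisted genes, 919 (82.4%) kept a difference within 1.5-fold of that with DMSO. The median difference of the persisted genes toward A673 was 1.45 with DMSO and 1.603 at 200 nM. Toward SKNMC it was -1.63 and -1.51.

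The 50 nM libraries, which the classes do not use, gave a separate reading. At 50 nM, 1024 of 1115 persisted genes (91.8%) were past 2-fold in the same direction. Of the vanished genes, 209 of 496 (42.1%) were still past 2-fold. Of the appeared genes, 315 of 838 (37.6%) were already past it. Genes past 2-fold at 50 nM alone numbered 241.

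Many class changes were small steps over the threshold. Of 496 vanished differences, 176 were under 1.5-fold at 200 nM, 53 of them toward A673 and 123 toward SKNMC. Of 838 appeared differences, 297 had been under 1.5-fold with DMSO, 188 toward A673 and 109 toward SKNMC. Genes named as examples of the vanished and appeared classes come from these stricter sets, while genes named within the gene groups may have crossed 2-fold by a smaller step.

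As deposited, the responses of each line describe by which moves the classes came about, while the sign of their difference follows from the class. These moves depend on the scaling, since the 75th percentile of the genes went from 35.7 to 27.8 FPKM in A673. In SKNMC it went from 33.7 to 23.0 FPKM. Responses of the classes under other scalings were not counted. Over all 10215 genes the median response to 200 nM was -0.41 in A673 and -0.57 in SKNMC, and 2659 (26.03%) and 2966 genes (29.0%) fell at least 2-fold. For the 155 vanished genes toward A673 the median response was -1.26 in A673 and -0.68 in SKNMC, and A673 fell at least 2-fold in 92. For the 341 toward SKNMC it was -0.14 in A673 and -0.69 in SKNMC, and SKNMC fell at least 2-fold in 116. The lower line rose at least 2-fold in 2 of all 496. For the appeared genes toward A673 the median responses were -0.13 in A673 and -0.78 in SKNMC, with SKNMC down at least 2-fold in 201 of 574. Toward SKNMC they were -0.82 and -0.16, with A673 down at least 2-fold in 108 of 264 and SKNMC up at least 2-fold in 12.

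Larger differences with DMSO persisted more often, as the fixed limit of 2-fold largely brings about, since they have farther to fall. Of genes 2 to 3 times apart with DMSO, 589 of 1042 (56.5%) persisted. The share was 88.9% of 271 genes at 3 to 4 times, 95.2% of 227 at 4 to 8 times and 97.2% of 71 beyond that. Persistence also followed the expression level. It was 38.03% for genes with a mean of 1 to 3 FPKM in the DMSO libraries and 83.2% for those at 100 FPKM and more. With both DMSO values above 1 FPKM and a mean under 3, a difference cannot reach 3-fold once 1 is added. The lowest bin thus holds only differences of 2 to 3 times, and persistence by level at a given fold was not counted. Differences that appeared toward A673 were mostly in genes of middle and high level, with 208 toward A673 and 31 toward SKNMC between 30 and 100 FPKM. Between 3 and 10 FPKM the numbers were 91 and 86. By gene span the persisted share was 68.0% under 10 kb and 67.2% both from 10 to 30 kb and from 30 to 100 kb. It was 75.9% from 100 to 300 kb and 74.4% at 300 kb and more.

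**Figure D2:**
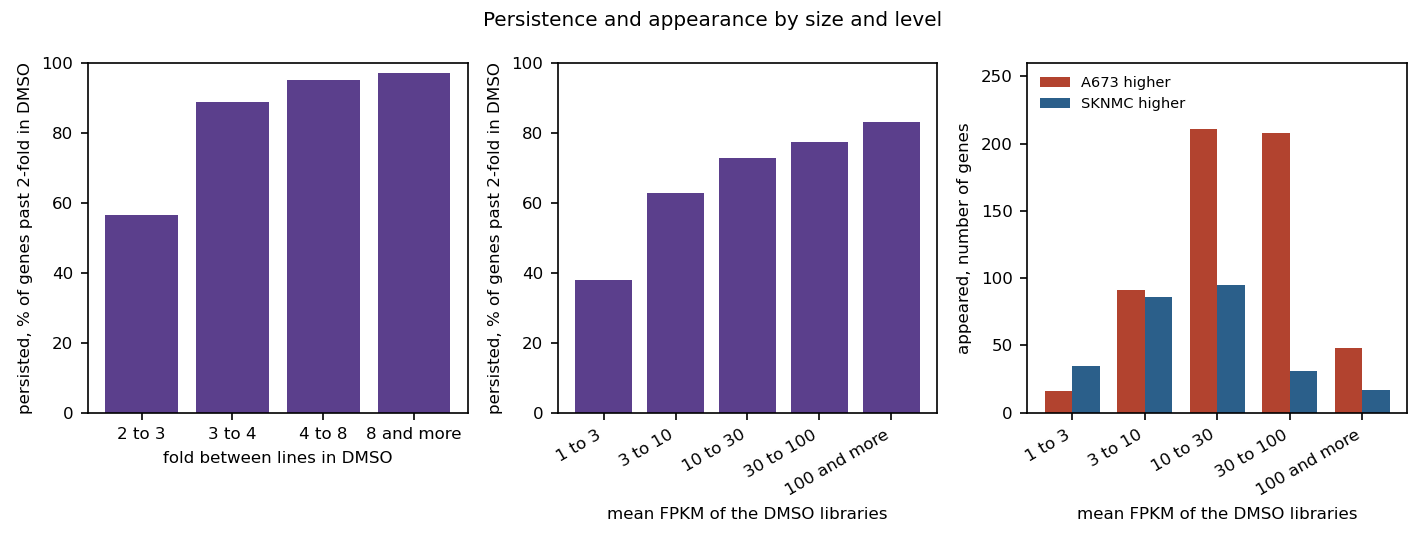
Share of DMSO differences that persisted at 200 nM THZ1, in percent, by fold between the lines with DMSO (left) and by mean DMSO FPKM (middle), and number of differences that appeared in each direction by mean DMSO FPKM (right). The persisted share rises from 56.5% at 2 to 3 times to 97.2% at 8 times and more. The right panel is as deposited, and its bins were not counted under other scalings.

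Of the genes that stayed higher in A673, those with the largest differences are described. MMP1 (chr11:102660650-102668891, hg19), an interstitial collagenase, was at 839, 849 and 1015 FPKM in A673 and 22.7, 11.7 and 18.3 FPKM in SKNMC. Its line difference was 5.15 with DMSO and 5.71 at 200 nM. AKR1C3 (chr10:5077545-5149878), an aldo-keto reductase of steroid and prostaglandin metabolism, was at 265, 255 and 276 FPKM in A673 and 10.5, 5.68 and 3.53 FPKM in SKNMC, and its difference widened from 4.52 to 5.93. A673 was level across the doses here while SKNMC declined. PCDH7, a protocadherin, was at 98.6, 96.0 and 53.4 FPKM in A673 and 2.498, 0.987 and 0.613 FPKM in SKNMC. DUSP6, a phosphatase that acts on ERK, was at 91.4, 55.4 and 33.0 FPKM in A673 and 4.75, 1.28 and 0.535 FPKM in SKNMC. Both of these fell in both lines and kept their order, with differences of 5.08 and 4.47 at 200 nM. DAB1, an adaptor of reelin signalling, was at 37.4, 34.6 and 35.0 FPKM in A673 and 1.31, 0.975 and 0.908 FPKM in SKNMC. FERMT3, an activator of integrins, was at 58.0, 42.5 and 53.01 FPKM in A673 and 3.21, 1.76 and 1.51 FPKM in SKNMC. In neither of them did the level in A673 move by 1.5-fold. The beta-tubulin gene TUBB2B differed by 3.56 with DMSO and 3.76 at 200 nM. PTX3, a secreted pentraxin, was at 67.3, 16.6 and 16.7 FPKM in A673 and 1.51, 0.475 and 0.561 FPKM in SKNMC, a difference of 4.77 with DMSO and 3.50 at 200 nM.

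Genes that stayed higher in SKNMC included precursors of neuropeptides. PENK, the precursor of enkephalins, was at 28.4, 27.1 and 30.9 FPKM in A673 and 1184, 1525 and 2107 FPKM in SKNMC. Its difference of -5.34 with DMSO and -6.04 at 200 nM was the most negative at 200 nM among all 10215 genes. CCK, the precursor of cholecystokinin, was at 4.26, 3.72 and 4.08 FPKM in A673 and 148, 164 and 226 FPKM in SKNMC. As deposited, both precursors were higher in SKNMC at each THZ1 dose than with DMSO, while A673 stayed low. The response of SKNMC to 200 nM was 0.83 for PENK and 0.61 for CCK, beside a median of 0.59 for cytosolic ribosomal protein genes. Responses of these 2 genes under other scalings were not counted. ASS1, an enzyme of arginine synthesis, was at 2.77, 1.99 and 2.75 FPKM in A673 and 104, 109.7 and 96.8 FPKM in SKNMC. IGFBP4, a binding protein of insulin-like growth factors, was at 5.62, 5.64 and 7.35 FPKM in A673 and 195, 130.0 and 158 FPKM in SKNMC. Their differences at 200 nM were -4.71 and -4.25. SOX18, a transcription factor of endothelial development, was at 1.36, 0.313 and 0.251 FPKM in A673 and 67.6, 22.9 and 18.6 FPKM in SKNMC. It fell in both lines, and the difference at 200 nM was -3.97. COL9A2, which encodes a chain of collagen IX, differed by -3.53 with DMSO and -3.75 at 200 nM. For the retinol dehydrogenase RDH10 the difference was -4.24 with DMSO and -4.22 at 200 nM. All of these persisted genes, in both directions, were past 2-fold with DMSO and at 200 nM under each of the 3 scalings as well.

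Of the differences toward A673 that vanished, the AP-1 gene FOSL1 had the largest change. FOSL1 (chr11:65659519-65668044), a partner of JUN proteins in the AP-1 factor, was at 19.7, 4.37 and 3.07 FPKM in A673 and 1.42, 1.66 and 4.34 FPKM in SKNMC. The difference went from 3.10 with DMSO to 1.02 at 50 nM and -0.39 at 200 nM. As deposited, it was the only gene of the 10215 that fell at least 2-fold in A673 and rose at least 2-fold in SKNMC, where the DMSO level was close to the limit of 1 FPKM. NEAT1 (chr11:65190244-65213011), the long noncoding RNA of nuclear paraspeckles, was at 44.9, 19.0 and 18.5 FPKM in A673 and 13.0, 12.1 and 26.2 FPKM in SKNMC. Its difference went from 1.71 to -0.48. FOSL1 and NEAT1 lie on the same arm of chromosome 11. FOSL2, another AP-1 gene, was at 12.1, 4.44 and 1.17 FPKM in A673 and 3.49, 3.40 and 1.06 FPKM in SKNMC. OTUD1, a deubiquitinase gene, was at 12.4, 6.28 and 1.249 FPKM in A673 and 3.15, 2.62 and 0.706 FPKM in SKNMC. Both fell in both lines, from a higher start in A673, to differences of 0.076 and 0.40. NDC80, a kinetochore gene, was at 37.96, 13.0 and 7.61 FPKM in A673 and 17.9, 9.62 and 9.17 FPKM in SKNMC. KRTAP4-9, a keratin-associated protein gene with close copies, was at 11.0, 0.250 and 0.172 FPKM in A673 and 2.31, 0.0871 and 0.0218 FPKM in SKNMC, and reads of its copies may not be told apart. With a pseudocount of 0.1 its difference at 200 nM was 1.16 and did not vanish.

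Of the differences toward SKNMC that vanished, G0S2 had the largest change. G0S2 (chr1:209848764-209849733), an inhibitor of the triglyceride lipase of fat droplets, was at 1.93, 0.649 and 0.742 FPKM in A673 and 12.8, 2.94 and 0.651 FPKM in SKNMC. Its difference went from -2.24 to 0.077. RAB3IL1, an exchange factor for Rab proteins, was at 6.32, 2.76 and 2.08 FPKM in A673 and 23.7, 9.31 and 2.68 FPKM in SKNMC. ARRB1, a beta-arrestin gene, was at 8.12, 4.99 and 5.68 FPKM in A673 and 33.1, 15.4 and 8.95 FPKM in SKNMC. RGS19, which speeds up GTP hydrolysis by G proteins, was at 6.497, 1.66 and 3.24 FPKM in A673 and 18.6, 3.24 and 3.41 FPKM in SKNMC. In each of these SKNMC fell further than A673, and the differences at 200 nM were -0.26, -0.57 and -0.056. AGTRAP, whose product binds the angiotensin receptor, was at 7.91, 8.41 and 12.5 FPKM in A673 and 18.1, 8.87 and 9.55 FPKM in SKNMC. PLA2G12A, a secreted phospholipase A2, was at 10.5, 11.5 and 15.5 FPKM in A673 and 29.4, 21.6 and 17.1 FPKM in SKNMC. Here the A673 level was higher at 200 nM than with DMSO while SKNMC was lower. Of the 12 named vanished genes, 11 also vanished with the 75th percentile, all but NDC80, and 11 with the ribosomal protein genes, all but AGTRAP.

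Of the differences that appeared toward A673, 6 are described. AIMP2 (chr7:6048875-6063465), a scaffold of the multi-synthetase complex, was at 62.8, 31.4 and 23.5 FPKM in A673 and 53.7, 15.7 and 6.93 FPKM in SKNMC. Its difference went from 0.22 to 1.63. ALAS1, the enzyme that starts haem synthesis, was at 20.8, 15.4 and 15.5 FPKM in A673 and 23.6, 13.6 and 5.90 FPKM in SKNMC. SLC2A1, the glucose transporter GLUT1, was at 14.1, 10.8 and 10.6 FPKM in A673 and 19.3, 14.7 and 4.70 FPKM in SKNMC. Both had been slightly higher in SKNMC with DMSO, at -0.17 and -0.43, and were higher in A673 at 200 nM, at 1.26 and 1.03. ETV5, an ETS transcription factor induced by ERK signalling, was at 18.6, 13.6 and 9.31 FPKM in A673 and 18.5, 7.30 and 2.96 FPKM in SKNMC. The repair enzyme gene UNG was at 52.9, 52.7 and 56.0 FPKM in A673 and 57.3, 42.4 and 22.7 FPKM in SKNMC. PREB, which takes part in vesicle export from the endoplasmic reticulum, was at 32.5, 13.3 and 22.5 FPKM in A673 and 41.7, 10.3 and 9.81 FPKM in SKNMC. The starting levels of ETV5 and UNG were nearly the same in both lines, with differences of 0.0049 and -0.11 that became 1.38 and 1.26.

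Toward SKNMC, as deposited, some differences appeared through a rise in SKNMC and others through a fall in A673. IER5L (chr9:131937834-131940540), a relative of the immediate early gene IER5, was at 9.42, 26.6 and 15.2 FPKM in A673 and 12.7, 41.0 and 65.7 FPKM in SKNMC. MEG3 (chr14:101245746-101327368), an imprinted long noncoding RNA, was at 2.86, 5.31 and 6.21 FPKM in A673 and 3.54, 8.88 and 25.1 FPKM in SKNMC. Both were higher at 200 nM than with DMSO in each line, and more so in SKNMC, where the differences reached -2.04 and -1.85. BRD8, a bromodomain subunit of the NuA4 acetyltransferase complex, was at 27.6, 13.0 and 9.34 FPKM in A673 and 37.9968, 39.9 and 39.2 FPKM in SKNMC. The zinc finger gene ZNF195 was at 18.0, 6.23 and 5.96 FPKM in A673 and 18.4, 12.5 and 17.2 FPKM in SKNMC. In both of these SKNMC ended near its DMSO level, while A673 fell at least 2-fold. ZNF692, another zinc finger gene, was at 26.6, 5.12 and 5.46 FPKM in A673 and 26.9, 10.3 and 17.2 FPKM in SKNMC. The lincRNA gene RP11-220I1.1 was at 24.9, 6.04 and 3.61 FPKM in A673 and 27.2, 9.32 and 11.0 FPKM in SKNMC. With the 75th percentile, 10 of the 12 named appeared genes also appeared, all but PREB and SLC2A1. With the ribosomal protein genes 9 did, all but ZNF692, ZNF195 and RP11-220I1.1.

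The strand setting of the counting is not given in the sources used here. DAB1, FERMT3, TUBB2B, PTX3, RDH10, PREB, AIMP2, MEG3, BRD8, SYT1, TAGLN, LOX, CCND1, EWSR1, NDUFS3 and PSMB9 overlap a listed gene on the other strand, and reads of the pair cannot be told apart without strand. All differences named here have no replicate check.

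**Figure D3:**
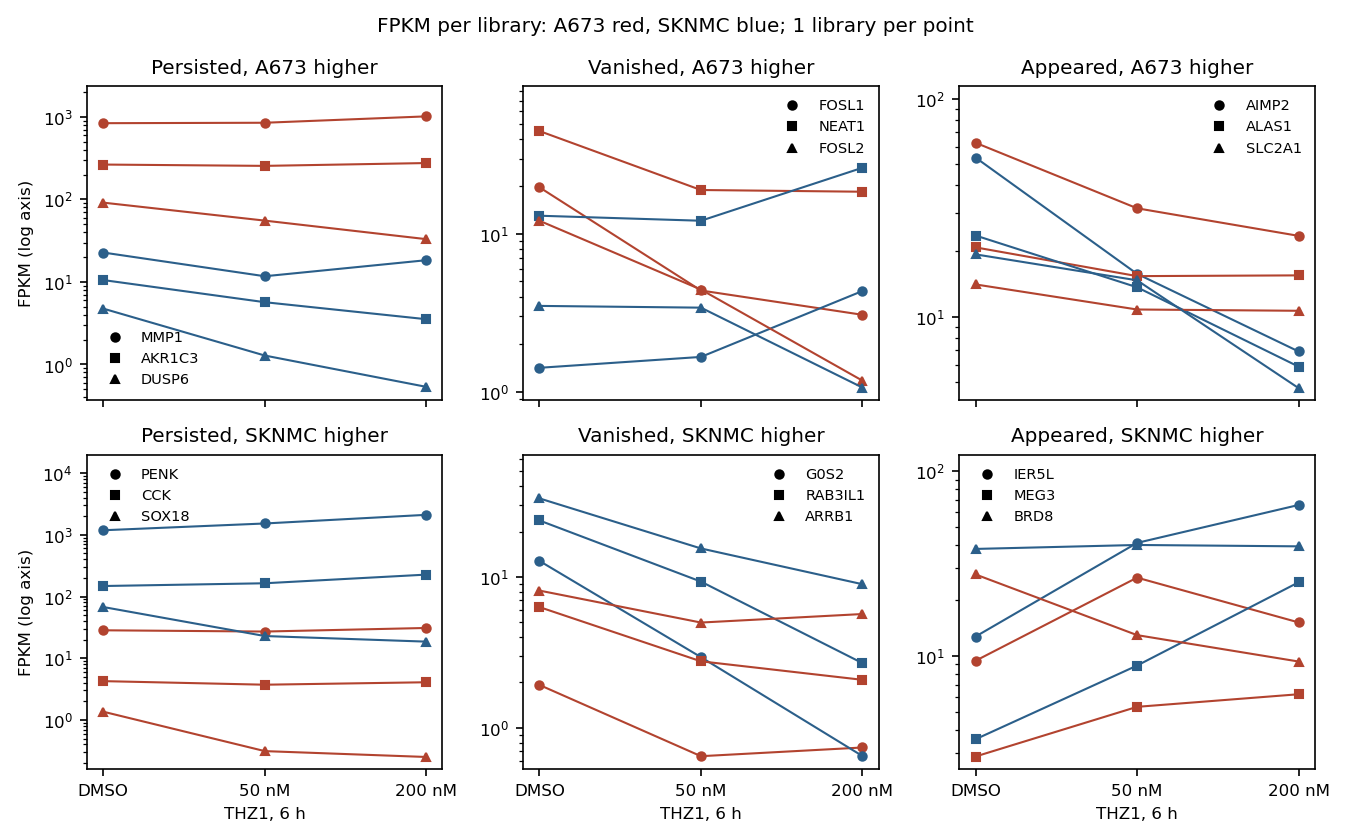
FPKM on a log axis with DMSO, 50 nM and 200 nM THZ1 for 3 named genes in each of the 6 combinations of class and direction, A673 in red and SKNMC in blue, 1 library per point. For each gene the lines stay apart in the persisted panels, come closer or cross at 200 nM in the vanished panels, and separate in the appeared panels.

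Promoters of 6 named genes with a motif match are printed as examples of the classes. Sequences come from RefSeq on build GRCh38.p14, and each run holds the 100 bases before a transcription start, read 5′ to 3′ along the strand of the gene. FERMT3, at chr11:64207606-64207705 (plus strand), and IGFBP4, at chr17:40443350-40443449 (plus strand), stand for persisted differences. NDC80, at chr18:2571457-2571556 (plus strand), stands for vanished differences. AIMP2, at chr7:6009172-6009271 (plus strand), SLC2A1, at chr1:42958869-42958968 (minus strand), and MEG3, at chr14:100826008-100826107 (plus strand), stand for appeared differences. Capitals mark the AP-1 site in FERMT3, the TATA box in IGFBP4 and SLC2A1, and the full cAMP response element in NDC80, AIMP2 and MEG3. Each run has 1 kind of motif marked, and others, such as a TATA box in MEG3, are left in lower case.
FERMT3: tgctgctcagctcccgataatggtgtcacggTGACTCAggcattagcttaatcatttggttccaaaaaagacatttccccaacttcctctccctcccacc
IGFBP4: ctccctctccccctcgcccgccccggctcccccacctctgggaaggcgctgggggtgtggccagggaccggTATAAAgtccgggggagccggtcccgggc
NDC80: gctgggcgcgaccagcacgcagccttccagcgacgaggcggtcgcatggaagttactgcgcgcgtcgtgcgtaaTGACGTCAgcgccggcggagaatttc
AIMP2: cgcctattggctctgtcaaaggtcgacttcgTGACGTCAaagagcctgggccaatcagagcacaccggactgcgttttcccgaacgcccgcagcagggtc
SLC2A1: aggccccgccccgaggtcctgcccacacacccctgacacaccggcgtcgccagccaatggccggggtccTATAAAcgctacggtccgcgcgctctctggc
MEG3: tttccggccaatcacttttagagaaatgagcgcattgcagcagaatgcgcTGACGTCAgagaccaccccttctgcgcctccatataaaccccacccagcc

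The marked TATA box starts 29 bases before the start of IGFBP4 and 31 bases before that of SLC2A1. The marked response element starts 26 bases before the start of NDC80, 69 before that of AIMP2 and 50 before that of MEG3. Such a match is a description of letters and not evidence of binding. NDC80 and AIMP2 fell in both lines although they belong to different classes.

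The same motifs were counted over promoters from 250 bases before to 50 bases after a start, on both strands. TATAAA stood for the TATA box. The AP-1 site was TGANTCA. For the cAMP response element the motif was TGACGTCA. Further motifs were GGGCGG for the GC box and, as a short repeat of the kind that EWS-FLI1 binds, GGAAGGAA. None of the 5 motifs contains another. A promoter was found for 8428 of the genes (82.5%), 7714 of them by the same symbol and the others by another symbol. A gene with several starts counted as holding a motif if any start did. Shares over all promoters of the table instead count each promoter singly, those of other genes included. The 2 kinds of share are thus not like for like. TATAAA was in 11.6% of 34943 promoters in the table and in 7.76% of the matched genes. It was in 14.6% of the vanished genes toward A673, 10.6% of the persisted and 6.11% of the appeared genes toward A673, and in 8.45% of the vanished genes toward SKNMC. TGANTCA was in 7.72% of all promoters and 6.395% of the matched genes, and in 12.3% of 463 persisted genes toward A673. In that class GGAAGGAA was in 8.21%, against 4.75% of the matched genes and 3.68% of all promoters. Among 284 vanished genes toward SKNMC, TGANTCA was in 3.87% and TGACGTCA in 1.41%, against 4.20% of the matched genes and 1.84% of all promoters for the latter. GGGCGG was in 78.9% of the matched genes and 44.9% of all promoters. For persisted and appeared genes toward SKNMC fewer than 80% of the genes had a promoter (79.5% and 76.9%), so their shares are void and not given.

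Gene groups are described by the median line difference of their members minus that of all 10215 genes, which was -0.043 with DMSO and 0.029 at 200 nM, and this distance is given below as DMSO first. Over all genes, 10.9% had a persisted and 8.20% an appeared difference. These shares, and those of the groups beside them, are of all genes or members. A persisted share thus also grows with the number of differences with DMSO, of which 69.2% persisted over all genes. Besides the member of each group farthest toward either line, IER2, KLF6, GADD45B, ID3, PPP1R15A, EGR2, BTG2, SPRY4, ETV1, CTGF, ANKRD1, HOXB6, KIF11, CDT1, CCNB1, AURKB, CDK1, CYP51A1 and CDK12 were named after their values had been seen. The median of immediate early and other labile genes changed its sign. The 37 members were 0.33 above all genes with DMSO and -0.25 at 200 nM. Above the median of all genes were 22 members with DMSO and 15 at 200 nM. With DMSO 8 members were at least 2-fold higher in A673 and 4 in SKNMC (21.6% and 10.8%, against 6.95% and 8.82% of all genes). At 200 nM these were 3 and 5 (8.11% and 13.5%, against 11.1% and 8.07%). Differences vanished in 7 members, against 496 of all 10215 genes. Beside FOSL1 and FOSL2, the vanished members were IER2, KLF6 and PPP1R15A from the side of A673 and EGR2 and BTG2 from the side of SKNMC, where BTG2 persisted with a pseudocount of 0.1, at -1.49. IER2, an early response gene, was at 65.6, 106 and 134 FPKM in A673 and 20.5, 56.7 and 91.5 FPKM in SKNMC. KLF6, a zinc finger transcription factor, was at 43.4, 42.9 and 19.3 FPKM in A673 and 18.3, 17.6 and 12.6 FPKM in SKNMC. GADD45B, a stress-induced gene, kept a difference of 3.13 with DMSO and 1.14 at 200 nM. EGR1 went against the group. This zinc finger transcription factor was at 12.7, 13.8 and 53.4 FPKM in A673 and 2.38, 0.484 and 1.13 FPKM in SKNMC, and its difference grew from 2.02 to 4.67. On the side of SKNMC, ID1, an inhibitor of helix-loop-helix factors, was at 46.5, 42.0 and 31.7 FPKM in A673 and 160.1, 206 and 153 FPKM in SKNMC, and its relative ID3 was at 174, 64.8 and 49.6 FPKM in A673 and 308, 216 and 168 FPKM in SKNMC.

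Feedback genes of the ERK pathway lay toward A673 in the median. The 12 members lay 1.48 above all genes with DMSO and 1.18 at 200 nM. Differences persisted in 7 (58.3%, against 10.9% of all genes) and appeared in 2 (16.7%, against 8.20%). They vanished in 2, against 496 of all 10215 genes. The median response was -1.30 in A673 and -1.31 in SKNMC. SPRY4, an inhibitor of receptor tyrosine kinase signalling, was at 12.1, 17.7 and 11.5 FPKM in A673 and 1.39, 0.912 and 0.677 FPKM in SKNMC. ETV1, an ETS factor, was at 22.0, 12.8 and 10.5 FPKM in A673 and 2.98, 1.61 and 0.585 FPKM in SKNMC. On the opposite side EPHA4, an ephrin receptor gene, was at 4.22, 3.76 and 1.31 FPKM in A673 and 17.7, 14.03 and 10.6 FPKM in SKNMC, a difference of -1.84 with DMSO and -2.32 at 200 nM.

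Contractile genes and targets of the coactivator YAP were likewise higher in A673. Of 19 members, 12 were at least 2-fold higher in A673 and 2 in SKNMC at 200 nM, against 1129 (11.1%) and 824 (8.07%) of all genes. Their distance from all genes was 1.67 with DMSO and 1.42 at 200 nM. TAGLN, an actin-binding protein of smooth muscle, was at 128, 104 and 97.2 FPKM in A673 and 7.002, 5.43 and 8.30 FPKM in SKNMC. CTGF, a secreted YAP target, was at 241, 113 and 43.8 FPKM in A673 and 7.23, 6.95 and 5.86 FPKM in SKNMC, so that its difference narrowed from 4.88 to 2.71. ANKRD1, another YAP target, was at 23.7, 2.79 and 0.787 FPKM in A673 and 1.08, 0.216 and 0.0442 FPKM in SKNMC, and it was the member whose difference vanished. Its levels at 200 nM were below 1 FPKM, and with a pseudocount of 0.1 the difference persisted, at 2.62. TPM2, a tropomyosin gene, was at 23.1, 18.7 and 23.3 FPKM in A673 and 91.3, 89.7 and 97.4 FPKM in SKNMC, higher in SKNMC throughout. Of 5 caveola genes, 2 were at least 2-fold higher in A673 with DMSO and 4 at 200 nM, with distances of 0.80 and 1.17. The shares were 40% and 80%, against 6.95% and 11.1% of all genes. CAV2, a caveolin, was at 187, 112 and 152 FPKM in A673 and 61.3, 20.5 and 25.7 FPKM in SKNMC.

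Neuronal genes kept their pattern in both directions. All 11 differences past 2-fold with DMSO among the 15 members persisted, 6 toward A673 and 5 toward SKNMC. Over all genes 69.2% of such differences persisted. The 11 were 73.3% of the members, against 10.9% of all genes. None appeared, against 8.20% of all genes. The distance from all genes was 0.64 with DMSO and 0.53 at 200 nM. SYT1, a calcium sensor of synaptic vesicles, was at 46.8, 30.6 and 41.9 FPKM in A673 and 2.84, 1.42 and 2.79 FPKM in SKNMC. DPYSL3, a gene of axon growth, was at 2.77, 3.86 and 4.22 FPKM in A673 and 15.9, 21.5 and 24.1 FPKM in SKNMC. Neither member of this pair changed order at any dose. Of 33 collagen, laminin and integrin genes, 8 differences persisted (24.2%, against 10.9% of all genes), 2 vanished and 2 appeared (6.06%, against 8.20%). FN1, the gene of fibronectin, was at 550.2, 732 and 736 FPKM in A673 and 91.4, 94.5 and 124 FPKM in SKNMC. The group's distance from all genes went from 0.43 to 0.11, the latter 0.059 with the 75th percentile and 0.17 with the ribosomal protein genes.

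The median of the HOX genes moved toward SKNMC. The 20 members lay at 0.014 relative to all genes with DMSO, a value whose sign depended on the scaling, and at -0.45 at 200 nM. At least 2-fold higher in SKNMC were 4 with DMSO and 7 at 200 nM (20% and 35%, against 8.82% and 8.07% of all genes). In A673 these were 3 and 1 (15% and 5%, against 6.95% and 11.1%). HOXC11 was at 2.18, 0.674 and 0.423 FPKM in A673 and 13.3, 7.25 and 6.94 FPKM in SKNMC. HOXB6 was at 1.33, 1.93 and 1.00 FPKM in A673 and 2.59, 11.9 and 7.60 FPKM in SKNMC, and its difference appeared, from -0.63 to -2.10. HOXD8, which stayed higher in A673, was at 38.3, 11.4 and 13.3 FPKM in A673 and 8.68, 2.80 and 2.70 FPKM in SKNMC. Median responses of the group were -0.91 in A673 and -0.53 in SKNMC.

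The study linked a list of genes to super-enhancers from histone acetylation in Ewing sarcoma lines, A673 and SKNMC among them, and in primary tumours. Of 139 members, 25 were at least 2-fold higher in A673 and 16 in SKNMC at 200 nM (18.0% and 11.5%), against 11.1% and 8.07% of all genes. The persisted share of the members was 21.6%, against 10.9%, and the appeared share 7.91%, against 8.20%. Of the differences of the list with DMSO, 30 persisted and 9 vanished, while 69.2% of those of all genes persisted. Whether the shares of the list and of all genes differ was not tested. The distance of the list from all genes was 0.15 with DMSO and 0.064 at 200 nM. MEIS1, a homeodomain transcription factor, was at 9.72, 2.29 and 1.82 FPKM in A673 and 54.7, 21.2 and 18.7 FPKM in SKNMC, a difference of -2.38 with DMSO and -2.81 at 200 nM. APCDD1, an inhibitor of WNT signalling, was at 173, 65.4 and 56.2 FPKM in A673 and 187, 50.0 and 54.0 FPKM in SKNMC, which left the lines level at 0.056. DLGAP1, a scaffold gene of synapses, was at 33.6, 15.6 and 17.7 FPKM in A673 and 1.16, 0.337 and 0.660 FPKM in SKNMC. CCND1, the gene of cyclin D1, was at 711, 461 and 505 FPKM in A673 and 370.2, 197 and 202 FPKM in SKNMC, and the difference went past 2-fold at 1.31. The transcription factor gene BCL11B differed by -1.14 with DMSO and -1.09 at 200 nM, MYC by -0.96 with DMSO and -0.49 at 200 nM and the RNA-binding protein gene IGF2BP1 by 0.17 with DMSO and 0.72 at 200 nM.

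The driver genes themselves were close in the lines. FLI1 was at 31.5, 15.0 and 4.26 FPKM in A673 and 27.3, 15.2 and 4.56 FPKM in SKNMC, and its difference was -0.081 at 200 nM although it fell at least 4-fold in both lines. EWSR1 was at 134, 132 and 115 FPKM in A673 and 161, 170.1 and 126 FPKM in SKNMC, a difference of -0.13 at 200 nM. Reads of the fusion and of the normal alleles are counted together in these values. Of 21 genes known as activated by EWS-FLI1, 6 were at least 2-fold higher in A673 and 6 in SKNMC at 200 nM. This was 28.6% each way, against 11.1% and 8.07% of all genes. Differences persisted in 10 (47.6%, against 10.9%) and vanished in 0, against 496 of all 10215 genes. The distance of the activated genes from all genes was -0.38 and -0.47. That of the 10 Ewing sarcoma markers was -0.22 and -0.14, the latter -0.08 with the ribosomal protein genes. LIPI, a lipase gene and Ewing sarcoma marker, was at 81.4, 68.6 and 69.2 FPKM in A673 and 25.9, 14.3 and 9.99 FPKM in SKNMC. NKX2-2, a homeobox gene needed for transformation, was at 14.8, 9.71 and 3.598 FPKM in A673 and 37.6, 27.3 and 11.4 FPKM in SKNMC. PAX7, a muscle stem cell factor that is also a marker, differed by -1.11 with DMSO and -1.46 at 200 nM. Of 7 genes known as repressed by the fusion, 3 differences persisted (42.9%, against 10.9% of all genes) and 1 vanished. The distances of this list were 0.38 and 0.27, the latter 0.08 with the ribosomal protein genes. TGFBR2, a receptor of TGF-beta, was at 19.2, 17.6 and 7.44 FPKM in A673 and 1.49, 1.12 and 0.402 FPKM in SKNMC. LOX, a collagen cross-linking enzyme, was at 20.2, 21.3 and 19.9 FPKM in A673 and 21.7, 27.7 and 38.5 FPKM in SKNMC, which stayed under 2-fold.

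Several housekeeping groups moved toward A673 at 200 nM. Of 22 cholesterol synthesis genes, 1 was at least 2-fold higher in A673 with DMSO and 7 were at 200 nM (4.55% and 31.8%, against 6.95% and 11.1% of all genes). Their distance from all genes was 0.25 and 0.63. DHCR7, the reductase of the last step, was at 71.6, 87.5 and 111 FPKM in A673 and 56.4, 38.9 and 40.1 FPKM in SKNMC. CYP51A1, a sterol demethylase, was at 59.5, 59.1 and 64.0 FPKM in A673 and 52.0, 45.9 and 24.2 FPKM in SKNMC. SQLE, the squalene epoxidase, moved the other way and was at 68.7, 39.6 and 17.6 FPKM in A673 and 82.1, 58.6 and 27.1 FPKM in SKNMC, a difference of -0.25 with DMSO and -0.59 at 200 nM. Of 17 glycolysis genes, 4 and then 8 were at least 2-fold higher in A673 (23.5% and 47.1%, against the same shares of all genes), and their distance from all genes was 0.56 and 0.71. HK1, a hexokinase, was at 37.1, 36.5 and 38.7 FPKM in A673 and 5.64, 4.31 and 2.12 FPKM in SKNMC, a difference of 2.52 with DMSO and 3.67 at 200 nM.

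Of 36 proteasome subunit genes, 10 were at least 2-fold higher in A673 with DMSO and 13 at 200 nM (27.8% and 36.1%, against 6.95% and 11.1% of all genes), with distances from all genes of 0.52 and 0.82. PSMC3, an ATPase of the regulatory particle, was at 348, 341 and 389.8 FPKM in A673 and 85.5, 70.9 and 75.3 FPKM in SKNMC. PSMB9, a subunit of the immunoproteasome, was the reverse at 1.01, 1.11 and 1.73 FPKM in A673 and 18.1, 12.6 and 10.9 FPKM in SKNMC. Of 77 respiratory chain genes, 3 were at least 2-fold higher in A673 and 0 in SKNMC at 200 nM, and the share toward A673, 3.90%, was below the 11.1% of all genes. The distance was -0.021 and 0.14, with 0.09 at 200 nM for the 75th percentile and 0.27 for the ribosomal protein genes. NDUFS3, a subunit of complex I, was at 261, 307 and 262 FPKM in A673 and 114, 134 and 100.4 FPKM in SKNMC.

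Other families had medians toward SKNMC. Of 80 cytosolic ribosomal protein genes, 6 were at least 2-fold higher in SKNMC with DMSO and 18 at 200 nM (22.5%, against 8.07% of all genes), and 0 in A673. Their distance from all genes was -0.39 and -0.69. RPL23, a protein of the large subunit, was at 329, 328 and 359 FPKM in A673 and 996, 1214 and 1408 FPKM in SKNMC. Reads of processed pseudogenes may not be told apart from these genes. Of 327 ZNF zinc finger genes, 9 were at least 2-fold higher in A673 and 27 in SKNMC at 200 nM. Appeared differences numbered 24, persisted 12 and vanished 10. Toward A673 the share past 2-fold was 2.75%, against 11.1% of all genes, and the persisted share was 3.67%, against 10.9%. The share toward SKNMC, 8.26%, was close to that of all genes at 8.07%, and so was the appeared share, 7.34% against 8.20%. Their median responses were -1.20 in A673 and -1.05 in SKNMC, and their distance from all genes was -0.16 and -0.33, the latter -0.58 with the ribosomal protein genes. ZNF783 was at 2.30, 0.769 and 1.39 FPKM in A673 and 13.0, 7.87 and 8.06 FPKM in SKNMC. Of 7 clustered histone genes, 5 were at least 2-fold higher in SKNMC at 200 nM (71.4%, against 8.07% of all genes), with distances of -1.18 and -1.56. HIST1H1C, a linker histone gene, was at 5.15, 8.38 and 8.11 FPKM in A673 and 63.3, 78.0 and 83.0 FPKM in SKNMC. Histone genes are near copies of each other, so single values are uncertain.

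Of 45 cell cycle genes, 6 differences vanished, against 496 of all 10215 genes, while 4 persisted (8.89%, against 10.9%) and 2 appeared (4.44%, against 8.20%), and the distance from all genes was 0.45 and 0.33. The vanished ones, in KIF11, CDT1, CCNB1, AURKB and CDK1 beside NDC80, were all toward A673. TOP2A, a topoisomerase, was at 37.7, 19.0 and 16.4 FPKM in A673 and 106, 81.3 and 90.5 FPKM in SKNMC, a difference of -1.47 with DMSO and -2.39 at 200 nM. RRM2, a subunit of ribonucleotide reductase, was at 226, 168 and 207 FPKM in A673 and 132, 82.9 and 74.5 FPKM in SKNMC. These genes of the same list thus differed in opposite directions at 200 nM. Of 11 BCL2 family genes, 2 differences persisted and 1 appeared (18.2% and 9.09%, against 10.9% and 8.20% of all genes), with distances of 0.39 and 0.49. BMF, a proapoptotic member, was at 7.80, 4.21 and 2.06 FPKM in A673 and 26.4, 22.1 and 8.27 FPKM in SKNMC. BOK, another proapoptotic member, was at 14.9, 5.41 and 5.57 FPKM in A673 and 7.21, 2.63 and 1.47 FPKM in SKNMC.

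Genes of the transcription kinases include the target of THZ1. Of 28 genes of transcription kinases and their partners, 0 were at least 2-fold higher in A673 and 5 in SKNMC at 200 nM (0% and 17.9%, against 11.1% and 8.07% of all genes), and the distance from all genes was 0.11 and 0.0088, with -0.029 at 200 nM after division by the 75th percentile, so that its sign at this dose depended on the scaling. MNAT1, a partner of CDK7, lay just under 2-fold toward A673, at 0.999 at 200 nM, and was past it with a pseudocount of 0.1. CDK7 was at 41.1, 26.4 and 9.57 FPKM in A673 and 30.4, 22.0 and 6.33 FPKM in SKNMC, a difference of 0.42 with DMSO and 0.53 at 200 nM. HEXIM1, an inhibitor of P-TEFb, was at 4.53, 10.1 and 4.83 FPKM in A673 and 19.7, 40.6 and 30.5 FPKM in SKNMC. CDK12, the kinase gene of transcript elongation, differed by -1.02 with DMSO and -1.54 at 200 nM. Of 4 multidrug transporter genes, 1 was at least 2-fold higher in A673 and 1 in SKNMC, against 11.1% and 8.07% of all genes and with distances of -0.25 and -0.44. ABCC4 was at 19.2, 18.5 and 18.5 FPKM in A673 and 9.81, 8.55 and 6.99986 FPKM in SKNMC. ABCC5 was at 8.24, 15.2 and 11.2 FPKM in A673 and 20.0, 37.9 and 28.6 FPKM in SKNMC. Both transporters export nucleotide analogues among other substrates. Of 19 heat shock genes, 3 were at least 2-fold higher in A673 and 1 in SKNMC (15.8% and 5.26%, against 11.1% and 8.07% of all genes), with distances of 0.57 and 0.44. BAG3, a co-chaperone, was at 23.1, 38.2 and 10.9 FPKM in A673 and 8.24, 13.5 and 2.93 FPKM in SKNMC. HSF2, a heat shock factor, was at 17.1, 15.0 and 3.09 FPKM in A673 and 24.6, 32.0 and 7.90 FPKM in SKNMC. Of 16 MHC class I and antigen processing genes, 3 were at least 2-fold higher in SKNMC (18.75%, against 8.07% of all genes), with distances of -0.029 and 0.23. HLA-B was at 3.63, 4.75 and 5.30 FPKM in A673 and 47.4, 64.1 and 59.3 FPKM in SKNMC, and HLA values are uncertain because the genes are near copies and vary between people.

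**Figure D4:**
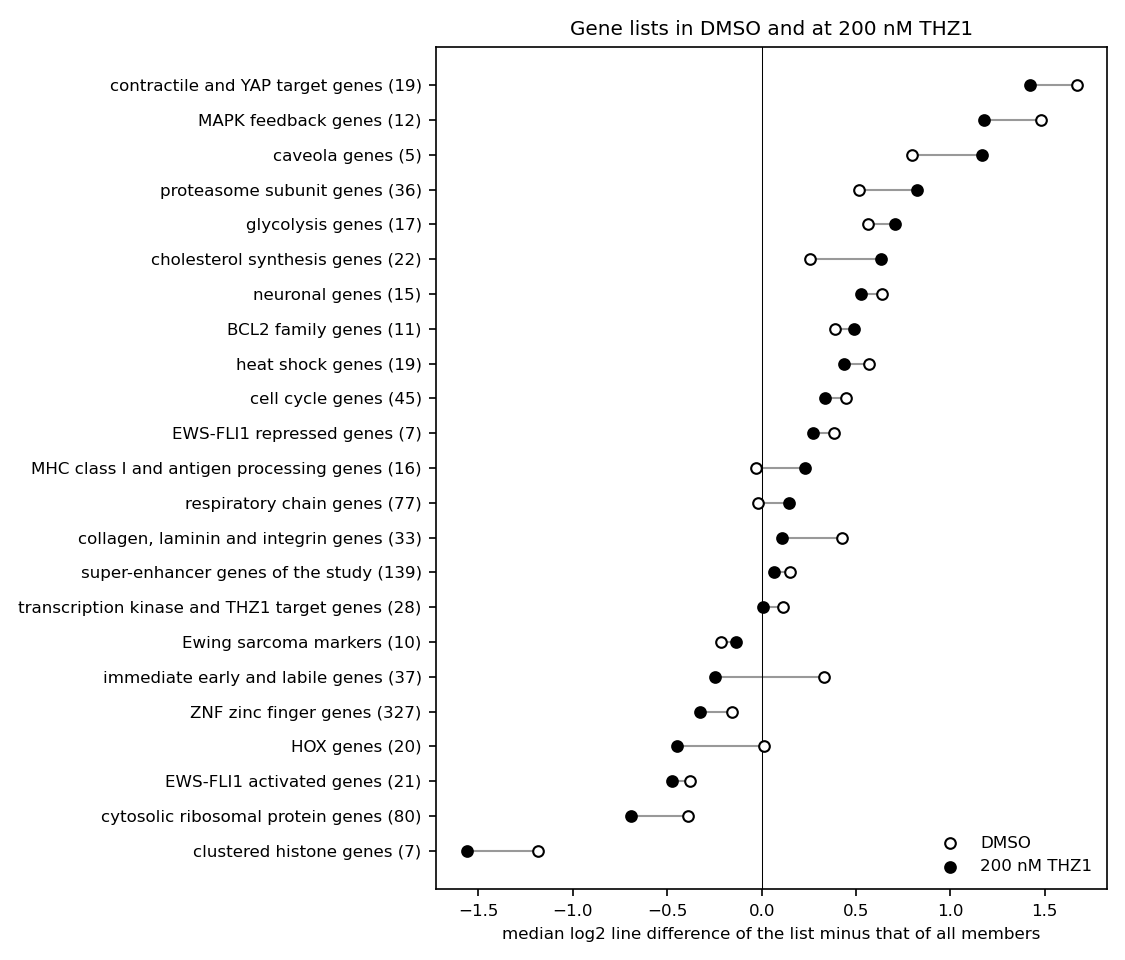
Median line difference of gene groups minus that of all 10215 genes, on the log2 scale, with DMSO (open) and at 200 nM THZ1 (filled), with the number of genes in brackets, for described groups of at least 5 genes. Contractile, ERK feedback and caveola genes lie toward A673 at both, while immediate early and labile genes crossed from 0.33 to -0.25.

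The line difference also followed the chromosomes, and this pattern outlasted the treatment. Chromosome 10 had a median difference of 0.58 with DMSO, 0.56 at 50 nM and 0.68 at 200 nM over 406 genes. At 200 nM, 82.0% of its genes were higher in A673, against 51.6% of all genes. It held 3.97% of the genes and 12.1% of those at least 2-fold higher in A673. Chromosome 3 lay toward SKNMC, at -0.33 with DMSO and -0.17 at 200 nM. Across 22 chromosomes the medians with DMSO and at 200 nM correlated with a Pearson coefficient of 0.92. Across 261 windows of 10 Mb with at least 10 genes it was 0.90. Neighbouring genes share libraries, so these are descriptions.

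Smaller regions differed by direction. Of 24 windows with a median of at least 0.5 toward A673 with DMSO, 22 were so at 200 nM. Of 19 toward SKNMC, 10 were. The limit of 0.5 is absolute, so these counts would move with the scaling. The window from 10 to 20 Mb of chromosome 10 had a median of 0.84 with DMSO and 0.98 at 200 nM. The window from 30 to 40 Mb of chromosome 17 had -0.96 and -0.78 over 85 genes, and RPL23, TOP2A and IGFBP4 lie in it. PSMC3 and NDUFS3 lie in the window from 40 to 50 Mb of chromosome 11, which had 0.92 and 0.96 over 42 genes. The number of gene copies in these lines was not analysed here.

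**Figure D5:**
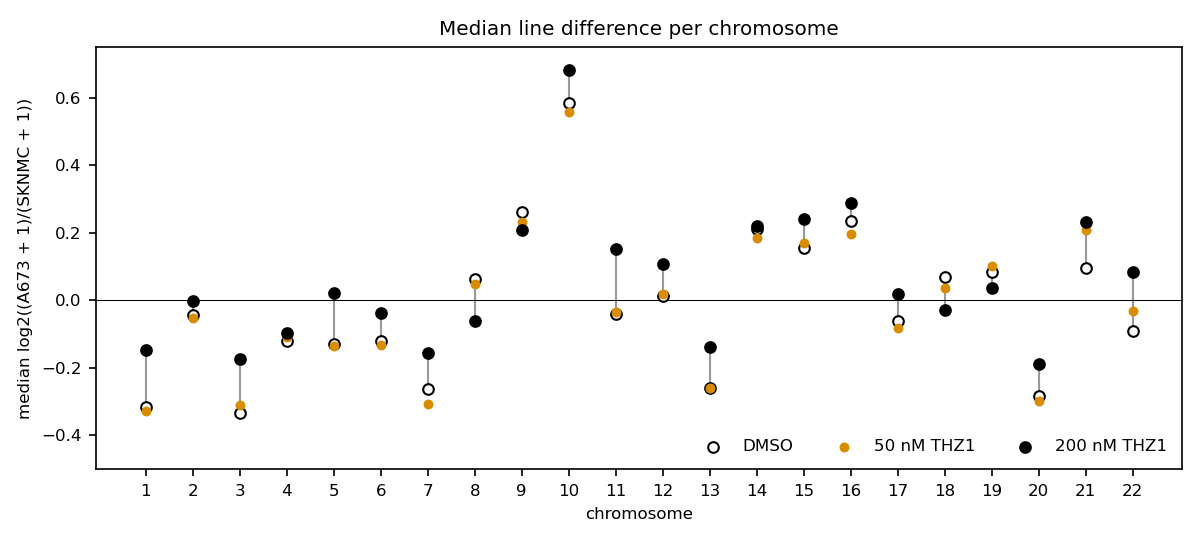
Median line difference, log2((FPKM + 1) in A673 / (FPKM + 1) in SKNMC), of the genes of each autosome with DMSO (open), 50 nM (orange) and 200 nM THZ1 (black). Chromosome 10 stands highest at each dose, at 0.58, 0.56 and 0.68.

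Among the 182 lincRNA genes, 4 (2.20%) differences toward A673 and 11 (6.04%) toward SKNMC persisted, against 5.43% and 5.48% of all genes. Vanished differences numbered 4 (2.20%) and 7 (3.85%), against 1.52% and 3.34%. Appeared differences numbered 7 (3.85%) and 12 (6.59%), against 5.62% and 2.58%. NEAT1 and MEG3 belong to this group and moved in the direction of SKNMC.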

How the data were processed

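RNA of A673 and SKNMC cells was sequenced after 6 h with vehicle or with THZ1 at 50 nM or 200 nM, with 1 library for each of the 6 conditions. The authors deposited 1 table of FPKM values per gene on hg19 with Ensembl annotation. Their methods name STAR and StringTie, while the submitters' processing notes name Cufflinks, so the tool behind the FPKM values is not settled here. The table is titled as average expression although 1 library per condition is listed. The log2 fold changes the authors deposited beside the FPKM values were not used here. Reads per library are not known, and relative depth was estimated roughly from low values.

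Line differences were computed from the FPKM values plus 1 with python 3.11.15, pandas 2.3.3 and numpy 2.4.6, and drawn with matplotlib 3.10.9. Genes had an FPKM above 1 in both DMSO libraries, and EEF1A1 and chromosomes X and Y were left out. The members and the gene lists were chosen with earlier results of these data known. Named genes had at least 10 FPKM in at least 1 compared library and were, in each direction, the 8 persisted genes with the largest value of the smaller of their DMSO and 200 nM differences and the 6 largest changes among vanished and among appeared differences that crossed 1.5-fold as well, with the extreme genes of each list, genes of the study and the listed markers of cell types. Not every gene or list that the rule covers is described here. Genes named outside this rule are marked in the report as chosen after their values were seen. The scripts were tested on simulated data. Alternatives changed the pseudocount, the filter, the gene set, genes listed at 0, the scaling and the fold threshold. No test was made, because each condition has 1 library.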

Additional observations from a re-analysis of the deposited data

Results flagged for a closer look

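As deposited, the lines moved in 4 named genes by at least 1.5-fold in opposite directions between DMSO and 200 nM THZ1. Over all 10215 genes, 4 rose in A673 and fell in SKNMC by this much and 3 did the reverse, the named genes among them. The response in A673 minus that in SKNMC was -3.50 for FOSL1 and -2.19 for NEAT1, which fell in A673 and rose in SKNMC. It was 1.46 for AGTRAP and 2.65 for EGR1, which rose in A673 and fell in SKNMC. After division by the 75th percentile the fall in SKNMC was -0.35 for AGTRAP and -0.34 for EGR1, short of 1.5-fold. After division by the ribosomal protein genes the rise in SKNMC was 0.38 for NEAT1 and the rise in A673 was 0.27 for AGTRAP, also short of it. The signs stayed opposite in all 4 named genes. These contrasts were not tested, because there is 1 library per condition.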

How the results depend on the processing

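Of the 5 counts of genes under 11 alternatives, 35 values stayed within 1.5 times the count as reported and 20 did not. A pseudocount of 0.1 gave 1291 genes higher in SKNMC at 200 nM, beside 1400 in A673, which stayed within 1.5 times. With FPKM above 1 in at least 1 DMSO library, which admits more genes, 1391 were higher in SKNMC, beside 1362 in A673. Under this filter 1859 differences persisted and 913 vanished. With FPKM above 10 in at least 1 DMSO library, which admits fewer, 314 vanished. Scaling by the 75th percentile gave 722 genes higher in A673 and 1376 in SKNMC. Scaling by ribosomal protein genes gave 3067 and 282, with 1695 appeared. At 1.5-fold 2400 genes were higher in A673 and 1967 in SKNMC, while 2690 differences persisted, 1040 vanished and 1670 appeared. At 4-fold the counts were 162, 137, 195, 103 and 104. Thresholds and filters move counts by their construction, and for the scalings and the pseudocount the cause was not tested. For the genes named by rule, 775 values of the difference at 200 nM stayed within 1.5-fold and 63 did not. Under other scalings 16 of them changed sign, none of which was past 2-fold as reported, among them FOSL1, NEAT1, FOSL2, G0S2 and FLI1. Leaving out a replicate was not possible with 1 library per group. No paired analysis was made. With 1 library per group, a change of a line difference with dose has no replicate error. Low FPKM values rest on few reads, and differences near 2-fold are the least certain.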

Other observations

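Genes above 1 FPKM in 1 DMSO library alone numbered 1740, 485 in A673 and 1255 in SKNMC, and were not part of the comparison.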
